A study of Homo sapiens with 32 samples.

Results

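The 36 genes described here act in S phase, G2 and mitosis of the human cell cycle. They were named by symbol rather than by a threshold on measured values, and each matched 1 Ensembl identifier among the 58721 genes of the deposited expression tables. Of the 36, 17 act in S phase: PCNA, MCM2, MCM3, MCM4, MCM5, MCM6, MCM7, RRM1, RRM2, TYMS, GINS2, CDC6, CDC45, CDT1, FEN1, SLBP and CCNE2. The other 19 act in G2 and mitosis (G2/M): CCNA2, CCNB1, CCNB2, CDK1, CDC20, PLK1, AURKA, AURKB, BUB1, BUB1B, TOP2A, MKI67, CENPE, CENPF, TPX2, KIF11, KIF20B, UBE2C and BIRC5.

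All libraries came from HEK293T, a human embryonic kidney line whose SV40 large T antigen binds RB and p53. The study compared cells with wild-type eIF3d (WT) and cells with a phosphomimetic eIF3d that carries the changes S528D and S529D (DD), given thapsigargin (Tg, 600 nM for 16 h) or an equal volume of DMSO. Thapsigargin empties the calcium store of the endoplasmic reticulum by inhibiting its SERCA pump, and eIF3d is the cap-binding subunit of translation initiation factor eIF3. RNA-Seq of polyadenylated RNA had 2 libraries each of DD Tg, DD DMSO, WT Tg and WT DMSO. Subunit-Seq used cells labelled HA-eIF3d-TEV, in which the tagged eIF3d was immunoprecipitated and the RNA left on its cap-binding domain was sequenced (IP). It had 2 libraries each of IP Tg, input Tg, IP DMSO and input DMSO, and no DD cells. The remaining assay, m6A-eCLIP, had 16 libraries, 2 of IP and 2 of input per genotype and treatment, and is read here from 1 list of N6-methyladenosine sites for each of these 4 conditions. The labels do not say whether replicates were separate cultures, whether DD or WT cells are 1 clone, or how the eIF3d forms are expressed. P-values below therefore refer to these libraries only. They use a spread shared in part between genes in RNA-Seq. In the main Subunit-Seq fit it is shared wholly, so those p-values and SE do not measure a gene's own spread.

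A cell starts S phase when CDKs release E2F factors from RB proteins, and E2F factors then switch on genes for licensing origins, unwinding DNA and making deoxynucleotides. Later, the complex of B-MYB and MuvB with FOXM1 switches on the genes of G2 and mitosis. MuvB contacts an element named the cell cycle gene homology region (CHR), and the factor NF-Y binds CCAAT boxes near it. In resting cells the DREAM complex keeps both gene sets low. In RNA from a whole culture, fewer cells in a phase and less mRNA per cell cannot be told apart.

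The 2 lists differed in promoter sequence, which no expression value enters. Since the genes were listed by the phase they act in, a difference in these motifs is partly built into the choice and describes the lists only. RefSeq promoter windows of GRCh38.p14, equal in size and mostly upstream of the start, were at hand for 14 of the 17 S phase and 15 of the 19 G2/M genes. MCM4, MCM5, CCNE2, AURKA, TPX2, UBE2C and BIRC5 had no entry. A CHR (TTTGAA, or in its variant form TTCGAA, on either strand) stood in 2 of 14 S phase promoters (14.3%), 11 of 15 G2/M promoters (73.3%) and 16.6% of all 27305 promoters. An E2F-type heptamer on either strand (of the form TTCCCGC, also as variant TTGGCGC, as variant TTCGCGC, or as variant TTGCCGC) stood in 10 of 14 S phase promoters (71.4%), 2 of 15 G2/M promoters (13.3%) and 13.1% of all promoters. CCAAT, on either strand, was frequent in both lists, in 9 of 14 (64.3%) and 13 of 15 (86.7%), against 35.7% of all promoters. E2F-type matches on opposite strands can overlap, and TTCGAA reads the same on both strands, so promoters were counted rather than matches. RRM1 and MCM6 held both a CHR and an E2F-type match among the S phase genes, and CDK1 among the G2/M genes. Median GC content was 67.8% in the S phase promoters, 62.3% in the G2/M promoters and 58.3% in all promoters. The part of GC content in the matches was not tested. A match is letters only and shows no binding.

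Stretches before the start of 3 S phase and 3 G2/M genes are printed 5′ to 3′, because they show how the motifs lie. Capitals mark E2F-type heptamers and CCAAT boxes in the first 3 and CHR and CCAAT boxes in the last 3; ATTGG is CCAAT read on the other strand. The stretches are chr16:88803729-88803788 (plus strand) for CDT1, chr20:5126623-5126707 (minus strand) for PCNA, chr2:135876493-135876598 (minus strand) for MCM6, chr15:59105021-59105145 (plus strand) for CCNB2, chr16:23678809-23678888 (plus strand) for PLK1 and chr10:128126424-128126528 (minus strand) for MKI67.
CDT1: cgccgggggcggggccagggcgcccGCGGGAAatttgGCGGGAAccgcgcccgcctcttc
PCNA: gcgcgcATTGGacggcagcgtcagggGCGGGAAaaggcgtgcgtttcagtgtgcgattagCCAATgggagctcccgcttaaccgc
MCM6: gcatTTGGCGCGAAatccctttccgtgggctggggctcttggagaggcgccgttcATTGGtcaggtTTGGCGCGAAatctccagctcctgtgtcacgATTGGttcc
CCNB2: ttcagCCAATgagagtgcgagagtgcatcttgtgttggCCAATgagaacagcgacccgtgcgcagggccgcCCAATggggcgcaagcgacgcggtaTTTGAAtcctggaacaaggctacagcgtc
PLK1: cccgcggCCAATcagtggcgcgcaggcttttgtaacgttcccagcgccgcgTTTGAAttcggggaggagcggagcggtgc
MKI67: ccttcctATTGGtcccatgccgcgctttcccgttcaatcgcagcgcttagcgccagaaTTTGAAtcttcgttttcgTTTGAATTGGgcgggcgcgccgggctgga
In CDT1 a pair of E2F-type matches lay within 35 bases of the start, and MCM6 held 4 such matches as 2 overlapping pairs. In CCNB2 and PLK1 the CHR began 29 bases before the start, with CCAAT boxes farther upstream. MKI67 had 2 CHR matches, at 47 and 29 bases before the start, the second overlapping a CCAAT box.

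The depth and makeup of the libraries bear on every value below. RNA-Seq libraries held 4508483 to 10163214 reads and Subunit-Seq libraries 5102852 to 16860637, recovered from the steps of the RPKM values. Mitochondrial ribosomal RNA took 25.4% to 57.3% of RNA-Seq reads, the highest share in DD Tg replicate 2. EIF3D, the altered gene, stood at 29.2 to 91.2 RPKM in RNA-Seq; wild-type and DD reads cannot be told apart here. KRT18 and VIM, known from HEK293T, were present in all 16 libraries. PAX2, also known from that line, was at most 0.194 RPKM in RNA-Seq and 0 in both replicate 2 inputs. The leukocyte genes PTPRC and CD3E were at 0. COL1A1 and COL3A1, fibroblast genes that this line should lack, were found. COL3A1 had 4.87 to 8.97 RPKM in RNA-Seq replicate 1, and COL1A1 had 49.9 RPKM in IP DMSO replicate 1. NEFM (31.9 to 62.2 RPKM) and COL1A1 (13.2 RPKM or more) were high in all 4 RNA-Seq replicate 1 libraries, and at most 1.23 and 0.293 RPKM in replicate 2; the part of this split in the results was not tested. Of 12 stress genes such as HSPA5 and DDIT3, 11 were tested. All 11 lay above the all-gene median for input Tg against input DMSO, 8 for WT Tg against WT DMSO and 1 for DD Tg against DD DMSO. Relative to that median, their log2 medians were 1.92, 0.19 and −0.44 in the same order. An unadjusted p under 0.05 (limma) was reached by 11, 0 and 0 of them. The stress genes thus showed little response to Tg in RNA-Seq, which limits what a lack of change with Tg there can show.

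RNA-Seq showed no called change of any of the 36 genes with Tg or with the DD form. With limma and Benjamini-Hochberg adjustment over 9637 genes, 0 of 35 members tested and 0 genes in all (0.0%) passed an adjusted p of 0.05 in each of the 5 comparisons. Unadjusted p-values under 0.05 numbered 25 genes (0.259%) for DD Tg against DD DMSO, 24 (0.249%) for WT Tg against WT DMSO, 82 (0.851%) for DD against WT in Tg, 68 (0.706%) in DMSO and 21 (0.218%) for the interaction, with 0 members among them. Limma-voom on the recovered reads also called 0 genes, with 6 to 45 at an unadjusted p under 0.05. The main fit did not use the replicate number, so shifts shared by same-numbered libraries counted as spread and made it cautious. With that number as a block in limma, 67 to 254 genes had an unadjusted p under 0.05, with 0 members among them and 0 calls. The lack of calls therefore does not show that levels were equal. CCNE2, a cyclin that drives entry into S phase, was below the mean of 1 RPKM needed for testing, at 0.252 to 1.21 RPKM.

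**Figure D1:**
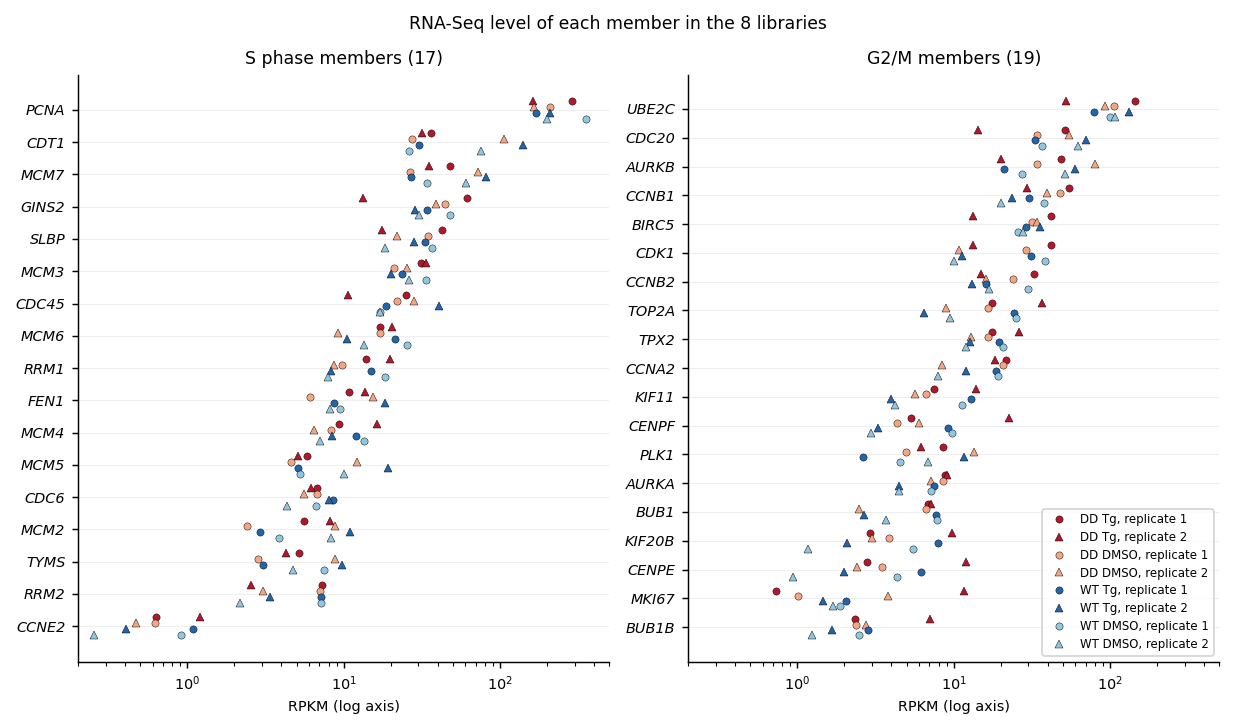
RNA-Seq level of each of the 36 genes (rows, ordered by mean) in RPKM on a log axis; colours mark the group and circles and triangles mark replicates 1 and 2, 1 point per library. CDT1, MCM7 and AURKB are higher in replicate 2 in every group but DD Tg, where replicate 1 is higher. DD Tg replicate 2 is the highest library for CENPF (22.65 RPKM) and the lowest for CDC20 (14.2 RPKM).

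PCNA, the sliding clamp of the replication fork, had the highest level of the S phase genes. It stood at 287 and 163 RPKM in DD Tg replicates 1 and 2, 207 and 165 RPKM in DD DMSO, 169.8 and 209.6 RPKM in WT Tg, and 355 and 199 RPKM in WT DMSO. The groups overlapped in the DD cells and in WT cells, where replicate 1 of DMSO alone was above both Tg libraries. FEN1, the flap nuclease that trims Okazaki fragments, was far lower, at 6.10 to 18.5 RPKM over the 8 libraries.

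The MCM2 to MCM7 proteins form the ring helicase that CDC6 and CDT1 load at origins. Their 6 mRNAs differed in level: MCM7 ranged over 26.4 to 81.3 RPKM, MCM3 over 20.2 to 33.7 RPKM, MCM6 over 9.17 to 25.6 RPKM, MCM4 over 6.46 to 16.4 RPKM, MCM5 over 4.599 to 19.3 RPKM and MCM2 over 2.39 to 11.005 RPKM. Of the 6, 4 lay above the all-gene median for DD Tg against DD DMSO (median 0.43 relative to it), 1 for WT Tg against WT DMSO (−0.09) and 0 for DD against WT in DMSO (−0.42), with 0 called. MCM3 was the one member whose groups parted in opposite directions in the 2 genotypes. The share of all genes with this pattern was not counted. It had 31.3 and 33.7 RPKM in DD Tg, against 21.0 and 25.3 RPKM in DD DMSO. In WT cells it had 23.7 and 20.2 RPKM in Tg, against 33.4 and 26.0 RPKM in DMSO. The log2 differences were 0.48 ± 0.65 in DD and −0.41 ± 0.65 in WT cells (SE, n = 2 libraries a group). Their difference was 0.89 ± 0.92 with an adjusted p of 1.0 in limma, so it was not called. These SE draw partly on the spread of other genes. For MCM3 itself, replicate 2 minus replicate 1 was 0.10 in DD Tg, 0.25 in DD DMSO, −0.22 in WT Tg and −0.35 in WT DMSO. The difference was not tested against that spread alone.

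The loading and firing factors gave no shared direction. CDT1 had 36.1 and 31.7 RPKM in DD Tg, 27.3 and 106 RPKM in DD DMSO, 30.3 and 140.4 RPKM in WT Tg, and 26.2 and 75.1 RPKM in WT DMSO. Replicate 2 was more than 2 times replicate 1 in every group but DD Tg. CDC6, the ATPase that loads the helicase, had 8.56 and 8.09 RPKM in WT Tg, against 6.66 and 4.31 RPKM in WT DMSO, so the groups did not overlap. In DD cells it had 6.73 and 6.14 RPKM in Tg, against 6.73 and 5.58 RPKM in DMSO, which differed little. CDC45, the helicase cofactor, had 18.6 and 41.0 RPKM in WT Tg against 17.2 and 16.99 RPKM in WT DMSO, and 25.1 and 10.6 RPKM in DD Tg against 22.02 and 28.2 RPKM in DD DMSO. GINS2, a subunit of the GINS part of the same helicase, had 61.1 and 13.3 RPKM in DD Tg, 44.6 and 38.7 RPKM in DD DMSO, 34.2 and 28.8 RPKM in WT Tg, and 48.1 and 30.2 RPKM in WT DMSO. Its lowest and its highest value were thus the 2 libraries of DD Tg.

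Genes of nucleotide supply were low to moderate. RRM1, the large subunit of ribonucleotide reductase, had 13.9 and 19.7 RPKM in DD Tg against 9.83 and 8.70 RPKM in DD DMSO, without overlap. In WT cells it had 15.0 and 8.34 RPKM in Tg against 18.3 and 7.97 RPKM in DMSO, with overlap. RRM2, the small subunit, was higher in replicate 1 (7.05 to 7.25 RPKM) than in replicate 2 (2.17 to 3.39 RPKM) in all 4 groups. TYMS, thymidylate synthase, was at 2.85 to 9.75 RPKM; its span overlaps the antisense gene ENOSF1 over 10593 bases, and reads of the 2 genes cannot be told apart where counting ignored strand. SLBP, which binds the stem-loop of histone mRNAs, was at 17.5 to 42.4 RPKM.

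The cyclins and CDK1, the kinase that cyclins A and B activate to start mitosis, passed no test between groups. CDK1 had 41.8 and 13.4 RPKM in DD Tg, 29.0 and 10.8 RPKM in DD DMSO, 31.0 and 11.3 RPKM in WT Tg, and 38.1 and 10.1 RPKM in WT DMSO. Replicate 1 was above replicate 2 in all 4 groups. CCNA2, the cyclin of S phase and G2, was likewise higher in replicate 1 (18.7 to 21.6 RPKM) than in replicate 2 (7.93 to 18.3 RPKM). CCNB1 had 47.5 and 39.2 RPKM in DD DMSO against 37.6 and 20.03 RPKM in WT DMSO, and was the member with the smallest unadjusted p for that comparison (0.403, limma). CCNB2 had 16.0 and 13.1 RPKM in WT Tg against 29.97 and 16.8 RPKM in WT DMSO, without overlap.

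Mitotic genes with long and with short transcripts stood apart in DD Tg replicate 2. TOP2A, topoisomerase II alpha, had 17.5 and 36.6 RPKM in DD Tg, 16.6 and 8.93 RPKM in DD DMSO, 24.4 and 6.43 RPKM in WT Tg, and 25.1 and 9.48 RPKM in WT DMSO. CENPF, a large kinetochore protein, had 5.36 and 22.65 RPKM in DD Tg, 4.35 and 6.03 RPKM in DD DMSO, 9.24 and 3.30 RPKM in WT Tg, and 9.70 and 2.98 RPKM in WT DMSO. MKI67, the proliferation antigen Ki-67 that coats mitotic chromosomes, had 0.730 and 11.7 RPKM in DD Tg, against 1.02 and 3.80 RPKM in DD DMSO. For all 3 the second DD Tg library was the highest of the 8. CDC20, which activates the anaphase-promoting complex, went the other way, with 51.5 and 14.2 RPKM in DD Tg, 33.9 and 54.6 RPKM in DD DMSO, 33.1 and 70.4 RPKM in WT Tg, and 36.7 and 62.8 RPKM in WT DMSO. UBE2C, the ubiquitin-conjugating enzyme of that complex, had 145 and 52.0 RPKM in DD Tg, against 106 and 93.0 RPKM in DD DMSO.

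The kinases and spindle proteins fell on both sides of this split. AURKB and BIRC5 (survivin), partners in the chromosomal passenger complex, had 20.04 and 13.2 RPKM in DD Tg replicate 2 against 48.6 and 42.0 RPKM in replicate 1. BUB1B, a spindle checkpoint kinase, had 2.35 and 7.05 RPKM in DD Tg against 2.36 and 2.75 RPKM in DD DMSO. The kinesins KIF11 (7.47 and 13.9 RPKM) and KIF20B (2.90 and 9.81 RPKM), the kinetochore motor CENPE (2.77 and 12.02 RPKM) and the spindle factor TPX2 (17.6 and 26.1 RPKM) were also higher in the second DD Tg library. AURKA (8.77 and 9.07 RPKM) and the checkpoint kinase BUB1 (6.87 and 7.14 RPKM) were level, and PLK1 (8.58 and 6.22 RPKM) was lower in it.

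**Figure D2:**
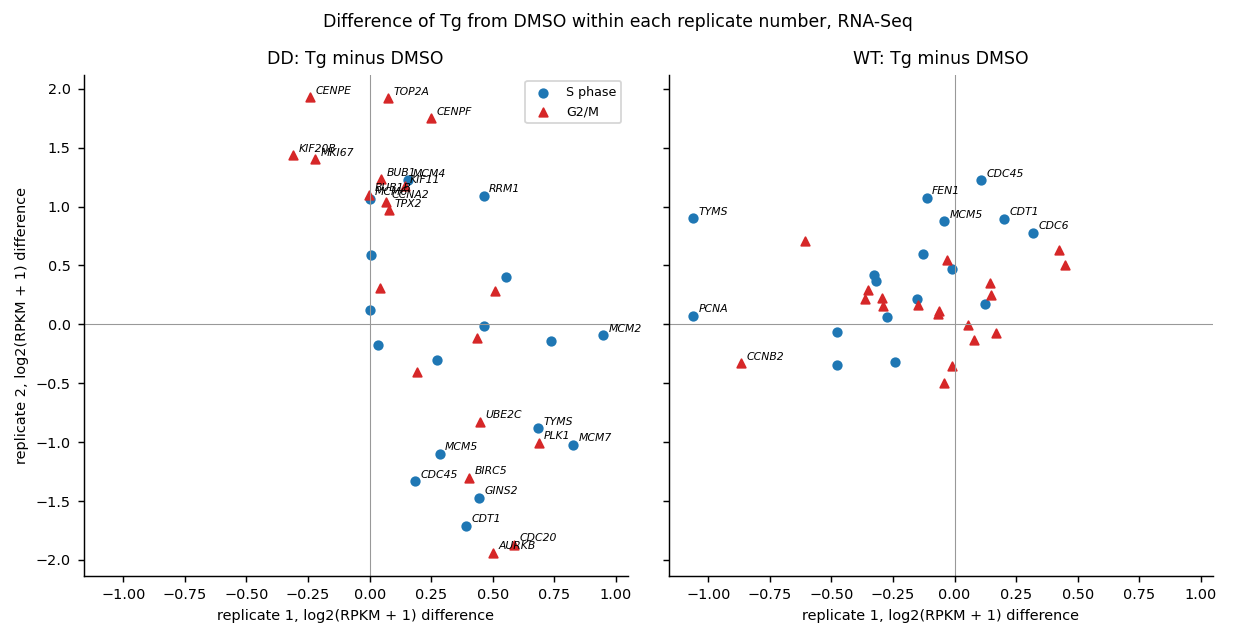
Difference of Tg from DMSO in log2(RPKM + 1) within replicate 1 (x axis) and replicate 2 (y axis), for DD cells (left) and WT cells (right), 1 point per gene. In DD cells the genes spread mostly along the axis of replicate 2, with CENPE, TOP2A and CENPF at the top and AURKB, CDC20 and CDT1 at the bottom.

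For the lists as a whole, medians are given as log2 difference minus the all-gene median. For DD Tg against DD DMSO, the S phase median was 0.00 (8 of 16 genes above the all-gene median) and the G2/M median 0.50 (13 of 19 above). Within replicate numbers these were 0.30 and −0.08 for S phase and 0.03 and 1.05 for G2/M. With the replicate number as a block and without DD Tg replicate 2, the G2/M median was −0.05 and the S phase median 0.22. In that fit the G2/M value depended on the library left out, but replicate numbers paired DD Tg weakly at most. Without the block, the G2/M median was 0.12 without DD Tg replicate 2 and 0.11 without DD DMSO replicate 2. These values do not single out 1 library. The S phase median was −0.19 without DD DMSO replicate 1 and 0.29 without DD DMSO replicate 2, again with no block. For WT Tg against WT DMSO the medians were −0.08 for S phase (7 of 16 above) and −0.11 for G2/M (5 of 19 above). The interaction was −0.07 for S phase and 0.41 for G2/M, and 0.18 and 0.13 without DD Tg replicate 2 in the blocked fit; over all single libraries left out it ran from −0.27 to 0.57 and from 0.15 to 0.78.

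Between genotypes, DD against WT gave −0.18 for S phase and 0.39 for G2/M in Tg, against −0.14 and −0.05 in DMSO. The value of 0.39 was 0.02 within replicate 1 and 0.94 within replicate 2. In the blocked fit without DD Tg replicate 2 it was −0.10. Leaving out WT Tg replicate 2 gave 0.12, and 0.11 for S phase, whereas the G2/M value was 0.70 without WT Tg replicate 1 and 0.65 without DD Tg replicate 1. In DMSO, the G2/M median was −0.41 without WT DMSO replicate 2, and the S phase median −0.50 without DD DMSO replicate 2. For WT Tg against WT DMSO, the G2/M median was 0.21 without WT Tg replicate 2 and 0.10 without WT DMSO replicate 1, and the S phase median was 0.27 without WT Tg replicate 1. Over all single libraries left out without the block, both medians for WT Tg against WT DMSO changed sign, as did that of S phase for DD against WT in Tg and that of G2/M in DMSO. The G2/M median in Tg stayed above 0 and the S phase median in DMSO below 0.

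Counts of members whose groups did not overlap differed by comparison. For DD Tg against DD DMSO, 8 of 35 members tested lay wholly above (8.59% of all genes): MCM3, MCM4, RRM1, AURKA, BUB1, TOP2A, TPX2 and KIF11. None lay wholly below (4.14% of all genes). For WT Tg against WT DMSO, CDC6, CDC45 and BIRC5 lay above (6.55%) and MCM3 and CCNB2 below (3.73%). For DD against WT in Tg, MCM3 and AURKA lay above (10.2%) and CDC6 below (6.06%). For DD against WT in DMSO, CDC45, CCNB1 and BIRC5 lay above (11.1%) and MCM3 below (4.7%). Same-numbered libraries were also compared within pairs, each pair relative to its own all-gene median. For DD Tg against DD DMSO, 4 S phase and 3 G2/M genes lay above it in both pairs (14.6% of all genes), and 1 and 0 below (14.6%). For WT Tg against WT DMSO, 3 S phase and 4 G2/M genes lay above in both (27.1%), and 6 and 9 below (27.1%). For DD against WT in Tg, 1 and 5 lay above (16.2%) and 3 and 0 below (16.2%). For DD against WT in DMSO, 2 and 5 lay above (27.4%) and 6 and 6 below (27.4%). CDK1 was higher in Tg in both DD pairs, by log2 0.51 and 0.28 before subtracting that median, although its groups overlap. Among the 8 in DD cells the gap between groups could be narrow: AURKA had at least 8.77 RPKM in DD Tg against at most 8.50 RPKM in DD DMSO.

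Transcript length followed the split between the DD Tg libraries. Across the 19 G2/M genes, the difference of DD Tg replicate 2 from replicate 1 had a Pearson r of 0.85 with log2 length, as a description over genes that share both libraries. Over the 16 S phase genes tested r was 0.39, and over 9634 genes 0.20. The G2/M genes gave 0.09 in DD DMSO, −0.55 in WT Tg and −0.47 in WT DMSO. Lengths ranged from 1286 bases (UBE2C) to 12807 bases (MKI67) in the G2/M list and from 1471 to 7338 bases in the S phase list. The part of RNA quality or library preparation in this was not tested.

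**Figure D3:**
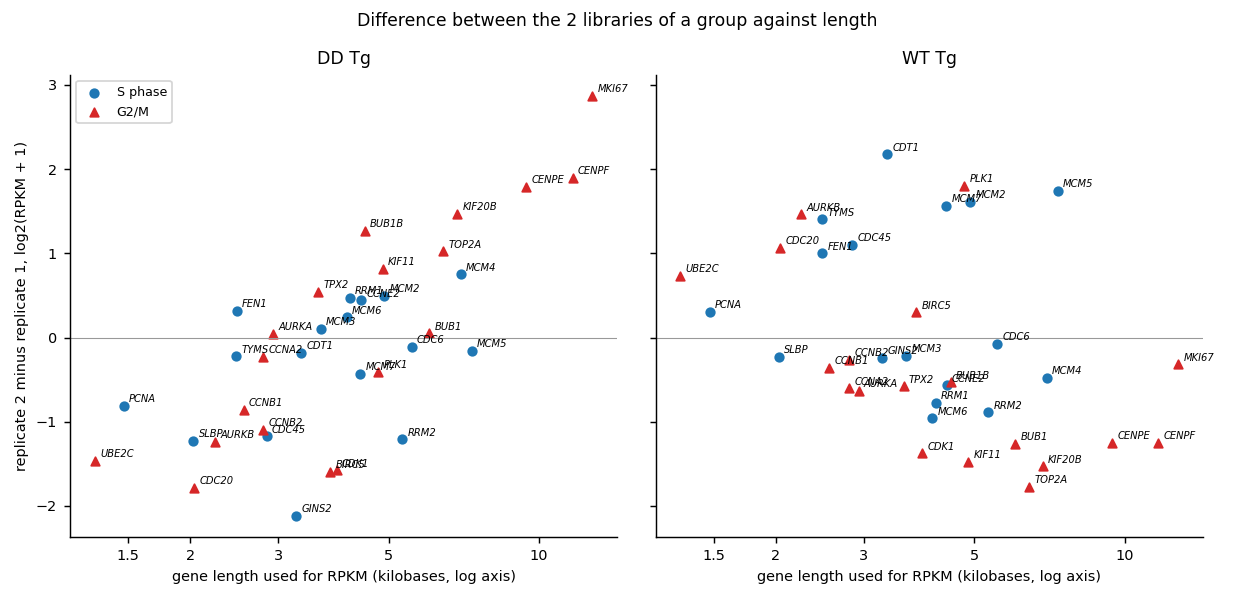
Difference of replicate 2 from replicate 1 in log2(RPKM + 1) against the gene length used for RPKM (log axis, kilobases), for DD Tg (left) and WT Tg (right), 1 labelled point per gene. In DD Tg the G2/M genes climb from UBE2C and CDC20 to MKI67 (r = 0.85), whereas in WT Tg the long genes lie below 0 (r = −0.55).

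Replicates of the other 3 groups differed in a shared way. In DD DMSO, WT Tg and WT DMSO alike, 8 members were higher in replicate 2: MCM2, MCM5, MCM7 and CDT1 in S phase and CDC20, PLK1, AURKB and BIRC5 in G2/M. Another 19 were lower in replicate 2 in all 3 groups (8 S phase and 11 G2/M), and 9 were mixed. The summed RPKM of the S phase genes was 1.12 to 1.58 times that of the G2/M genes. By group this ratio was 1.18 and 1.19 in DD Tg, 1.12 and 1.32 in DD DMSO, 1.17 and 1.58 in WT Tg, and 1.56 and 1.40 in WT DMSO. PCNA carried much of the sum. Without it the ratio was 0.628 and 0.709 in DD Tg, 0.602 and 0.917 in DD DMSO, 0.699 and 1.07 in WT Tg, and 0.706 and 0.833 in WT DMSO. With PCNA and without it, Tg and DMSO overlapped in both genotypes.

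Related genes outside the 36 gave 0 calls in RNA-Seq. For DD Tg against DD DMSO, 43 of 57 further mitotic genes (kinases, kinesins, kinetochore and condensin) lay above the all-gene median, with a median of 0.33 that was 0.03 within replicate 1 and 0.66 within replicate 2. All 21 further origin factors tested, such as GMNN and ORC6, lay above it (0.35), but with −0.15 within replicate 1 and 0.85 within replicate 2. The 28 polymerase, clamp loader and nucleotide genes had 0.16, in both replicates alike. The 8 regulators such as FOXM1 and MYBL2 had 0.06, the 19 G1 cyclins and RB and E2F genes 0.03, and the 17 CDK inhibitors, checkpoint kinases and p53 targets −0.04.

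In Subunit-Seq, some members had more RNA with eIF3d than in input. CENPF, TOP2A, KIF20B, MKI67 and FEN1 were called higher in IP than in input both in Tg and in DMSO. MCM3, MCM4, RRM1, TPX2 and KIF11 were called in DMSO only, and the change of IP over input between Tg and DMSO called 0 members. No member was called lower. With limma, the replicate number as a block and adjustment over 9813 genes, that made 5 of 34 members tested higher in Tg (14.6% of all genes were) and 10 of 34 in DMSO (21.4% of all genes), so the members' share in Tg was that of all genes. The lower calls took 1.62% and 1.75% of all genes. The IP and input libraries also differed in makeup. Mitochondrial ribosomal RNA took 0.286% to 0.705% of reads in the IPs against 4.64% to 20.4% in the inputs, the highest share in input DMSO replicate 2. Genes at 1 RPKM or more numbered 12945 to 13799 in the IPs and 6395 to 11452 in the inputs, the fewest in that same library. The part of these differences in the calls was not tested. CENPE and CCNE2 were not tested, since their mean over the 4 inputs was below 1 RPKM.

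CENPF (ENSG00000117724.12, chr1:214603195-214664571, plus strand, GRCh38.p14) had the largest IP minus input difference of the 36 as a mean over the 4 pairs. It had 21.9 and 27.6 RPKM in IP Tg against 3.13 and 1.13 RPKM in input Tg, and 27.4 and 21.8 RPKM in IP DMSO against 5.37 and 0.685 RPKM in input DMSO. Every IP library was above every input library. Its span also holds the pseudogenes ABHD17AP3 and UBE2V1P13, which were not separated here. The log2 difference was 3.11 ± 0.65 in Tg (adjusted p = 0.000123) and 2.96 ± 0.65 in DMSO (adjusted p = 0.000469, limma, SE, n = 2 pairs each). With no replicate block the adjusted p was 0.0606 in Tg and 0.0964 in DMSO.

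TOP2A (ENSG00000131747.14, chr17:40388525-40417896, minus strand) had 47.9 and 21.0 RPKM in IP Tg against 10.9 and 4.44 RPKM in input Tg. In DMSO it had 66.9 and 31.2 RPKM in IP against 11.2 and 1.88 RPKM in input. Its log2 differences were 2.02 ± 0.67 in Tg and 2.98 ± 0.67 in DMSO (adjusted p = 0.0251 and 0.000672, limma). KIF20B (chr10:89701590-89774934, plus strand), a kinesin of cytokinesis, had 14.7 and 5.28 RPKM in IP Tg against 1.95 and 0.595 RPKM in input Tg. Its DMSO values were 14.4 and 4.23 RPKM in IP against 1.96 and 0.580 RPKM in input. The plain ratio of IP to input was thus close in the 4 pairs, 7.58 and 8.88 in Tg and 7.38 and 7.30 in DMSO. Relative to the all-gene median of each pair, its log2 difference was 1.56 and 1.13 in Tg but 2.00 and 0.16 in DMSO. Its inputs held 49 to 109 reads.

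MKI67 (chr10:128096659-128126423, minus strand) had 11.4 and 7.62 RPKM in IP Tg against 3.55 and 1.07 RPKM in input Tg, and 12.4 and 13.6 RPKM in IP DMSO against 5.78 and 0.246 RPKM in input DMSO. The 4 ratios ran from 2.14 to 55.3, and the last rests on 46 reads in input DMSO replicate 2. FEN1 (chr11:61792911-61797238, plus strand) was the only S phase gene called in both treatments. It had 77.5 and 136 RPKM in IP Tg against 17.6 and 29.1 RPKM in input Tg, and 98.9 and 119 RPKM in IP DMSO against 29.8 and 8.87 RPKM in input DMSO. Unlike the other 4 genes it is short, at 2478 bases. CENPE, untested, had ratios of 7.58 to 84.1, the highest one resting on 12 input reads.

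Of the remaining DMSO calls, MCM3 had 68.6 and 76.3 RPKM in IP against 33.7 and 5.44 RPKM in input, and RRM1 31.1 and 36.6 RPKM in IP against 15.7 and 3.67 RPKM in input. MCM4 had 34.0 and 50.6 RPKM in IP against 23.2 and 2.43 RPKM in input. For these, TPX2 and KIF11, the within-pair log2 difference was 0.17 to 1.01 in replicate 1 and 3.01 to 3.91 in replicate 2. For the same genes, replicate 2 minus replicate 1 was 0.15 to 0.72 in IP DMSO and −2.8 to −1.8 in input DMSO. IP DMSO replicate 2 had the highest share of reads on the 36 genes among the IPs (0.631% against 0.482% to 0.541%). The size came mainly from input DMSO replicate 2, in which reads on the 36 genes made up 0.131% of the library, against 0.254% to 0.374% in the other inputs. Without that library 0 genes were called in DMSO. The DMSO difference changed sign in 6 of 34 members without input DMSO replicate 2 and in 3 of 34 without IP DMSO replicate 2. Which members were called depended on single libraries in both treatments. The number of members called in such fits is no result about the lists, since the number of all genes called also changed. With single libraries left out, the DMSO log2 difference of MCM3 ran from 1.2 to 3.4 and that of MCM4 from 0.848 to 3.59. It ran from 0.965 to 2.99 for RRM1, 0.401 to 3.14 for TPX2 and 0.97 to 2.97 for KIF11. The Tg log2 difference ran from 2.41 to 3.8 for CENPF, 1.87 to 2.18 for TOP2A and 2.01 to 2.39 for KIF20B. For MKI67 it ran from 1.44 to 2.07 and for FEN1 from 1.62 to 2.66.

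**Figure D4:**
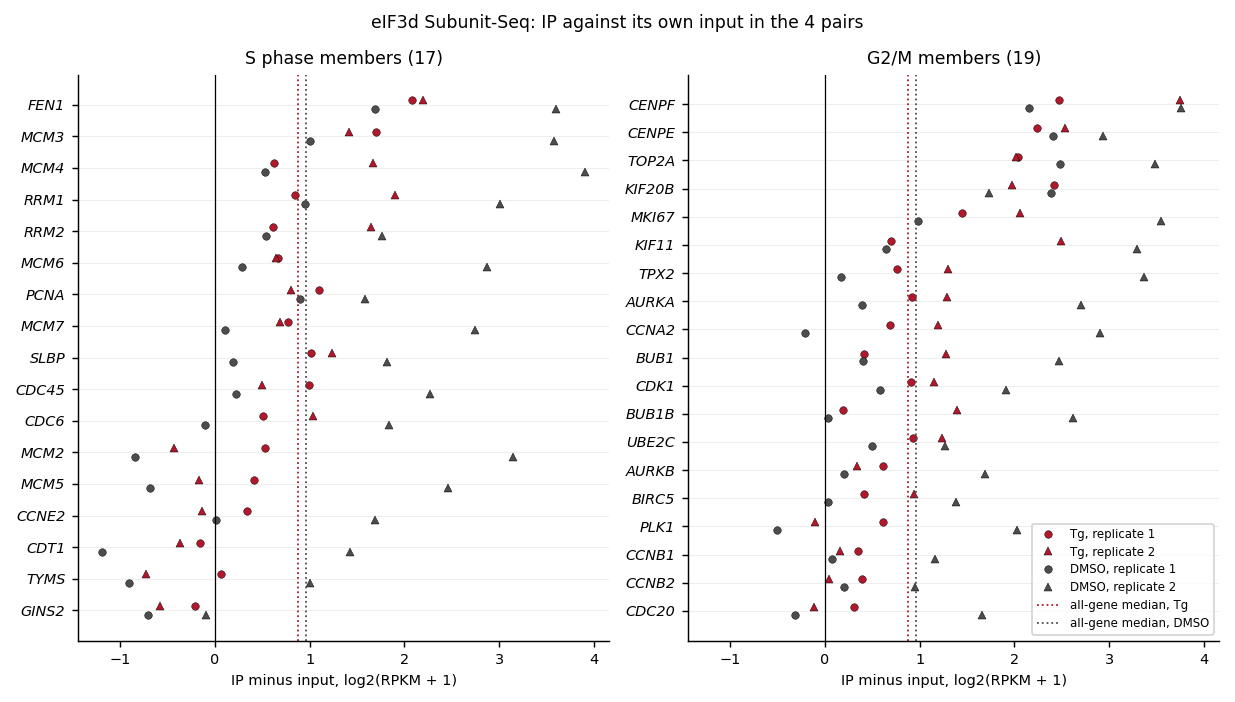
IP minus its own input in log2(RPKM + 1) for each of the 36 genes (rows, ordered by mean), with Tg pairs in red and DMSO pairs in grey, circles for replicate 1 and triangles for replicate 2; dotted lines are the all-gene medians of 0.87 in Tg and 0.96 in DMSO. CENPF, TOP2A, KIF20B, MKI67 and FEN1 lie right of both lines in all 4 pairs, and GINS2 lies left of 0 in all 4.

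Because the median of all genes was itself above 0 (log2 0.87 in Tg and 0.96 in DMSO), differences are better read against it. Rescaling the libraries by median ratios moved these medians to 0.01 in both treatments. It left 14 of 34 members above 0 in Tg (6 of 16 S phase and 8 of 18 G2/M) and 18 of 34 in DMSO (7 and 11), with 0 members called in either. Without the replicate block 0 members were called as well (36 genes in Tg and 24 in DMSO), while limma-voom called CENPF and KIF20B in Tg and 6 members in DMSO. Relative to the all-gene median, the S phase genes had a median of −0.12 in Tg and 0.24 in DMSO, and the G2/M genes 0.11 and 0.38. Single pairs disagreed in sign: the S phase medians were −0.21 and −0.10 in Tg and −0.18 and 0.79 in DMSO.

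Ranked this way, 8 of 34 members (23.5%) lay above the all-gene median in all 4 pairs, against 24.1% of all genes, and 5 (14.7%) lay below it in all 4, against 24.9%. Those above were CENPF, TOP2A, KIF20B, MKI67, CDK1 and AURKA in G2/M and FEN1 and MCM3 in S phase. Those below were GINS2, CDT1 and TYMS in S phase and CCNB1 and CCNB2 in G2/M. The 2 B-type cyclins were near each other in all 4 pairs, at −0.69 to −0.30 for CCNB1 and −0.80 to −0.18 for CCNB2. In plain ratios, IP was above input in all 4 pairs for 25 of 34 members (73.5%), 15 of 18 G2/M and 10 of 16 S phase, against 59.4% of all genes.

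GINS2 (chr16:85676198-85688954, minus strand) was the single member with less in IP than in input in every pair (7.14% of all genes). It had 29.7 and 40.1 RPKM in IP Tg against 34.5 and 60.2 RPKM in input Tg, and 34.1 and 49.6 RPKM in IP DMSO against 56.3 and 53.2 RPKM in input DMSO. The log2 difference was −0.39 ± 0.66 in Tg and −0.40 ± 0.66 in DMSO, and neither passed the test (unadjusted p = 0.548 and 0.539, limma). CDT1 had 48.9 and 53.4 RPKM in IP Tg against 54.7 and 69.1 RPKM in input Tg, and 57.7 and 98.2 RPKM in IP DMSO against 133 and 35.8 RPKM in input DMSO. Its only pair with more in IP was thus DMSO replicate 2.

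Length accompanied recovery in the G2/M list. Over the 18 tested G2/M genes, IP minus input had a Pearson r with log2 length of 0.70 in Tg and 0.76 in DMSO, as a description over genes that share the same libraries. Within the 4 pairs it was 0.61 to 0.68. Over the 16 S phase genes it was −0.10 in Tg and 0.13 in DMSO, and over 9800 genes 0.41 and 0.50. The part of length in the calls was not tested.

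**Figure D5:**
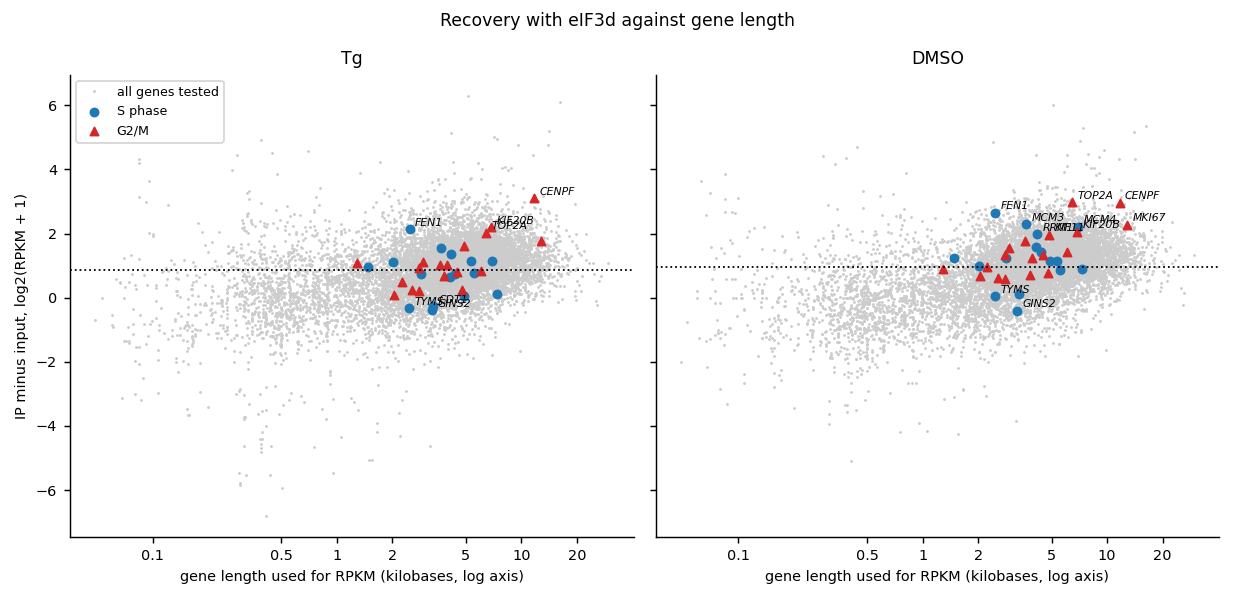
IP minus input in log2(RPKM + 1) against the gene length used for RPKM (log axis, kilobases), in Tg (left) and DMSO (right), with all genes tested in grey and members in colour; the dotted line is the all-gene median. The long G2/M genes CENPF, MKI67, KIF20B and TOP2A lie high (r = 0.70 in Tg and 0.76 in DMSO), and FEN1 lies high at 2478 bases.

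No member was called for an effect of Tg in this assay. The change of IP over input with Tg was called for 6 genes in all (0.0611%), input Tg against input DMSO for 5 (0.051%) and IP Tg against IP DMSO for 7 (0.0713%, of which 2, or 0.0204%, lower), with 0 members each. For the change of IP over input, 13 of 16 S phase and 14 of 18 G2/M genes lay below the all-gene median, with medians of −0.44 and −0.36; within replicate 1 these were 0.17 and −0.12, and within replicate 2 −1.12 and −0.58. Without input DMSO replicate 2 they were −0.03 and 0.01, so they rested on that library. All 6 MCM genes lay above the all-gene median for input Tg against input DMSO (median 0.36; −0.14 within replicate 1 and 0.87 within replicate 2). All 6 lay below it for IP Tg against IP DMSO (−0.60; −0.02 and −0.81) and for the change of IP over input (−0.78; 0.21 and −1.61), with 0 called.

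CDC6, singled out after its values were seen, was higher with Tg in both fractions of Subunit-Seq and in WT cells of RNA-Seq, without a call. It had 14.4 and 12.6 RPKM in input Tg against 11.6 and 4.13 RPKM in input DMSO, and 20.9 and 26.9 RPKM in IP Tg against 10.7 and 17.4 RPKM in IP DMSO. Its groups did not overlap in either, nor for WT Tg against WT DMSO in RNA-Seq, while they did in DD cells. The log2 differences were 0.85 ± 0.665 in input and 0.75 ± 0.665 in IP (SE, n = 2 pairs each), with unadjusted p = 0.200 and 0.257 and an adjusted p of 1.0 for each in limma. CDC6 was alone among 34 members tested above in input (6.39% of all genes), with 0 below (8.23%), and stood with CDC45 above in IP (18.1%). In IP Tg, PCNA, MCM4, MCM6, CDT1 and MKI67 lay wholly below IP DMSO (7.48% of all genes).

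Related genes outside the 36 were also called higher in IP. Of 56 further mitotic genes tested, 15 were called higher in IP in Tg and 26 in DMSO, with a median of 0.38 and 0.51 above the all-gene median. ANLN, a cytokinesis scaffold, had log2 differences of 2.65 ± 0.63 and 2.45 ± 0.63, and the condensin subunit SMC4 2.25 ± 0.64 and 2.64 ± 0.64. Of 21 origin factors 3 and 7 were called, of 28 polymerase, clamp loader and nucleotide genes 1 and 7, and of 22 G1 cyclins, RB and E2F genes 4 and 7, among them E2F3 and CCND2. Of 8 B-MYB, FOXM1 and DREAM regulators 1 and 2 were called, and of 19 CDK inhibitors, checkpoint kinases and p53 targets 7 and 6. None of these lists had a gene called lower. Over all genes, 14.6% were called higher in Tg and 21.4% in DMSO. Those calls too depended on the fit: 36 genes in all were called in Tg and 24 in DMSO with no replicate block, 64 and 20 with rescaling, and 0 in DMSO without input DMSO replicate 2.

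The m6A site lists held few positions in the members, with 1 list per condition and unknown depth. A list does not separate the 2 replicates, so no test was made. DD Tg had 17 sites in 10 members among 5050 sites (0.337%), DD DMSO 8 in 6 members among 1796 (0.445%), WT Tg 1 in 1 member among 1572 (0.0636%) and WT DMSO 10 in 9 members among 3000 (0.333%). S phase genes held 12 sites in DD Tg, 3 in DD DMSO, 0 in WT Tg and 3 in WT DMSO. G2/M genes held 5, 5, 1 and 7 in the same order.

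Positions are given on GRCh38. FEN1 and PCNA each had 3 sites in DD Tg, and 1 of each 3 was shared with another list, chr11:61796826 with WT DMSO and chr20:5119958 with DD DMSO. CDT1 had 2 sites in DD Tg and 1 other in WT DMSO. CENPF held 1 position, chr1:214663766, in DD Tg, DD DMSO and WT DMSO, at 98.7% of the gene span from its 5′ end. KIF20B was the only member with a site in all 4 lists, at chr10:89711076 and within chr10:89737873-89738496. All these sites lay on the strand of the gene. MCM2, MCM3, SLBP and AURKB also had sites in the last part of the span in DD Tg, beyond 86% of it except 1 AURKB site at 68.4%.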

How the data were processed

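The deposited tables give RPKM (reads scaled to gene length and library size) for 58721 genes, 1 for RNA-Seq and 1 per Subunit-Seq replicate. Per the submitters' processing notes, cutadapt, STAR, BWA and DESeq2 were used with GRCh38; their roles and versions, the counter and the annotation behind the authors' RPKM are not given in the sources used here. Per the labels, the RNA-Seq kit was not directional and the Subunit-Seq kit was; the strand setting of counting is not given. Whole reads were recovered from the RPKM steps for all 26179 genes above 0 in at least 3 libraries, every value within 0.02 reads of a whole number; limma-voom on those reads called 0 genes in RNA-Seq, and in Subunit-Seq 191 for IP against input in Tg and 666 in DMSO. The deposited m6A lists give site positions only.

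Values were log2(RPKM + 1), so differences understate changes of low genes. Genes needed a mean of 1 RPKM over the 8 RNA-Seq libraries or the 4 inputs. Limma 3.58.1 in R 4.3.3 (lmFit, contrasts, eBayes with trend) gave differences, and an adjusted p (Benjamini-Hochberg over all genes tested) under 0.05 made a call. RNA-Seq had no block (4 residual degrees of freedom), and all 8 libraries shared 1 estimate of the spread. Subunit-Seq had the replicate number as a block, since its tables were deposited per replicate (3 residual degrees of freedom). There limma's prior degrees of freedom were infinite, so each gene's standard error came from the trend of spread with mean level and not from the gene's own spread; with no block they were 11.5 (4 residual). Same-numbered RNA-Seq libraries deviated together in DD DMSO, WT Tg and WT DMSO, with r of 0.743 to 0.864 between these groups. For pairs of groups with DD Tg, r was 0.134 to 0.299, so the numbers paired DD Tg weakly at most. The main RNA-Seq fit did not use the pairing, and the block was an alternative. In Subunit-Seq r was 0.002 to 0.51. The fits were run on simulated reads with large planted changes and the same scatter in every library. Those data held no shift by replicate number and no outlying library. They therefore do not bear on how the calls here depend on such libraries. Tables and plots used Python 3.11.15, numpy 2.4.6, pandas 2.3.3 and matplotlib 3.10.9. Depth was 4508483 to 10163214 reads in RNA-Seq and 5102852 to 16860637 in Subunit-Seq; shares of reads carry counting error only.

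The members and gene lists were chosen with earlier results of these data known, so no list stands as independent support. All 36 members were named; other lists were given by counts and medians, naming up to 4 called genes with the largest change. Alternatives were another pseudocount, no filter, median-ratio rescaling, voom, the other choice of block, and leaving out each library.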

Additional observations from a re-analysis of the deposited data

Results flagged for a closer look

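In 3 members Tg and DMSO differed in opposite directions in the 2 genotypes in both replicates, before subtracting the all-gene median. How many of all genes did so was not counted, so the 3 are no result about the list. The difference between genotypes was tested as the interaction in limma, and none of the 3 passed, each with an adjusted p of 1.0. MCM3 had log2 differences of 0.55 and 0.40 in DD cells against −0.48 and −0.35 in WT cells, an interaction of 0.89 (unadjusted p = 0.359). TOP2A had 0.08 and 1.92 in DD cells against −0.04 and −0.50 in WT cells, an interaction of 1.27 (unadjusted p = 0.310). BUB1 had 0.05 and 1.23 in DD cells against −0.01 and −0.36 in WT cells, an interaction of 0.82 (unadjusted p = 0.399). For TOP2A and BUB1 most of the size lay in replicate 2, whose DD Tg library is the one in which long mitotic transcripts were high. Their replicate 1 differences were near 0 in both genotypes, so the signs there carry little.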

How the results depend on the processing

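No called result changed sign under any alternative run. RNA-Seq called 0 genes under every alternative except DD against WT in DMSO with the replicate block and without DD Tg replicate 2, which called 3. Under the replicate block alone 0 genes were called in RNA-Seq, with 67 to 254 at an unadjusted p under 0.05. The G2/M median for WT Tg against WT DMSO was −0.15 with rescaling, 0.00993 with no filter, −0.16 with a pseudocount of 0.1 and −0.15 with voom. With single libraries left out, the S phase and G2/M medians ran from −0.19 to 0.29 and 0.11 to 0.59 for DD Tg against DD DMSO, −0.22 to 0.27 and −0.26 to 0.21 for WT Tg against WT DMSO, −0.33 to 0.11 and 0.12 to 0.70 for DD against WT in Tg, −0.50 to −0.0147 and −0.41 to 0.0443 in DMSO, and −0.27 to 0.57 and 0.15 to 0.78 for the interaction. For IP against input in Tg, 64 genes were called with rescaling, 0 with no filter, 36 with no replicate block, 447 with a pseudocount of 0.1 and 191 with voom; S phase members called were 0 under each of these, and G2/M members 0, 0, 0, 2 and 2 in that order. The S phase median was −0.30 with rescaling, 0.52 with no filter, −0.29 with a pseudocount of 0.1 and −0.31 with voom, and the G2/M median 0.80 with no filter. For IP against input in DMSO, 20 genes were called with rescaling, 0 with no filter, 24 with no replicate block, 1332 with a pseudocount of 0.1 and 666 with voom. S phase members called were 0, 0 and 0 under the first 3 of these and 2 with voom, G2/M members 0, 0 and 0 under the first 3, and the medians with no filter were 0.94 for S phase and 1.14 for G2/M. With single libraries left out, IP against input called 114 to 2905 genes in Tg, 0 to 4 S phase and 0 to 4 G2/M members, with medians of −0.21 to 0.00947 and −0.14 to 0.31. In DMSO it called 0 to 5073 genes, 0 to 13 S phase and 0 to 15 G2/M members, with medians of −0.15 to 0.68 and 0.058 to 0.68. The change of IP over input with Tg and input Tg against input DMSO called 0 genes under all 5 other settings, and IP Tg against IP DMSO called 0, or 1 with a pseudocount of 0.1. With single libraries left out these called 0 to 19, 0 to 33 and 0 to 24 genes, with S phase medians of −0.97 to −0.0345, −0.26 to 0.85 and −0.33 to 0.00355 and G2/M medians of −0.76 to 0.00868, −0.0364 to 0.37 and −0.41 to 0.0216. The filter alternative tested 31093 Subunit-Seq genes; otherwise the cause was not tested.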
